A study of Mus musculus with 4 samples.

Results

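The collagen and laminin genes are the structural core of the extracellular matrix, and all rows for them were taken from the mouse gene tables. A gene was a member if its symbol was Col, a number, a and a number, or Lama, Lamb or Lamc and a digit. This gave 55 of the 22328 genes, 44 collagens and 11 laminins. Col4a3bp, whose symbol only starts with a collagen name and which encodes a ceramide transfer protein, was left out. Messenger RNA was sequenced in 4 libraries, 1 per group. F1m-CON was hippocampus from offspring of dams on 1.1 g/kg choline chloride, and F1m-GCS was hippocampus from offspring of dams on 5 g/kg from embryonic day 9 until birth. All offspring had a basal diet after birth and took behavioural tests at 2 months. HT22, an immortalised mouse hippocampal neuronal line, was cultured for 48 h with choline chloride at 5 µM (HT22 CON) or 70 µM (HT22 SUP). The labels name neither the strain nor how many animals went into a hippocampus library. The comparisons ask how maternal choline relates to matrix gene expression in offspring hippocampus, how medium choline relates to it in the cell line, and how the line compares with the tissue.

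Collagens are triple helices of 3 chains that can be products of different genes. Fibrillar collagens form the cables of connective tissue, type IV collagen forms the sheet-like network of basement membranes, and the remaining classes link fibrils, anchor membranes or span the cell surface. Laminins are cross-shaped trimers of an alpha, a beta and a gamma chain, and they start basement membrane assembly by binding cell surface receptors through the alpha chain. In brain, basement membrane lies around vessels and under the meninges, fibrillar collagen is largely found in meninges and vessel walls, and some neurons make transmembrane and fibril-associated collagens.

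Reads in genes came to 31175015 in F1m-CON, 30265820 in F1m-GCS, 18305096 in HT22 CON and 13192007 in HT22 SUP. With 1 library per group there was no replicate check, so no p-value is given. Each log2 ratio of normalised counts carries a 95% interval that covers counting error only, not the spread between animals or cultures. A gene was measured in a comparison if either library had at least 50 reads. It was called if its interval excluded 0 and its ratio reached 1.5-fold between treatments, or 4-fold between HT22 and hippocampus. Levels are RPKM, reads per kilobase of coding length per 1000000 reads in genes. Of the 55 members, 48 had at least 50 reads in some library. The 7 that did not were Col2a1, Col6a5, Col6a6, Col9a1, Col10a1, Col24a1 and Col28a1, with between 0 and 37 reads in any library.

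The labelled cell types were checked against marker genes. Neuron markers summed to 10000 CPM (reads per 1000000 reads in genes) in F1m-CON and 9980 in F1m-GCS, against 76.9 in HT22 CON and 194 in HT22 SUP. None of the 8 neuron markers was at 0 in HT22, but Rbfox3, the antigen of mature neuronal nuclei, had 15 and 33 reads there against 8635 in F1m-CON. The 8 markers of meninges and fibroblasts summed to 203 and 217 CPM in hippocampus and 1390 and 987 in HT22, but they did not run together. Dcn and Pdgfra made up nearly all of the HT22 value (log2 3.75 and 2.21 in HT22 CON over F1m-CON), and the other 6 were called lower in HT22, from Slc22a6 at -5.29 to Islr at -2.45. The neuron markers of the HT22 libraries thus went against the label of a neuronal cell, and the line is named here as the labels name it.

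Collagen and laminin transcripts formed a far larger part of HT22 messenger RNA than of hippocampal messenger RNA. Their share of reads in genes was 0.0802% (95% Wilson interval 0.0793% to 0.0812%) in F1m-CON and 0.0857% (0.0847% to 0.0868%) in F1m-GCS. In HT22 it was 0.781% (0.777% to 0.785%) in CON and 0.705% (0.7% to 0.709%) in SUP. Summed over members, the level was 226, 236, 1770 and 1570 RPKM in the same order. The identity of the leading gene differed as well. Col25a1, a membrane-bound collagen of neurons, took the most member reads in hippocampus, with 11.6% and 12.4%. Col1a2, a chain of type I collagen, took 30.9% and 30.6% in HT22, and together with Col3a1 and Col1a1 it made up 50.8% and 48.4%. No member was at 0 reads in hippocampus, whereas 10 were in HT22 CON and 6 in HT22 SUP.

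**Figure D1:**
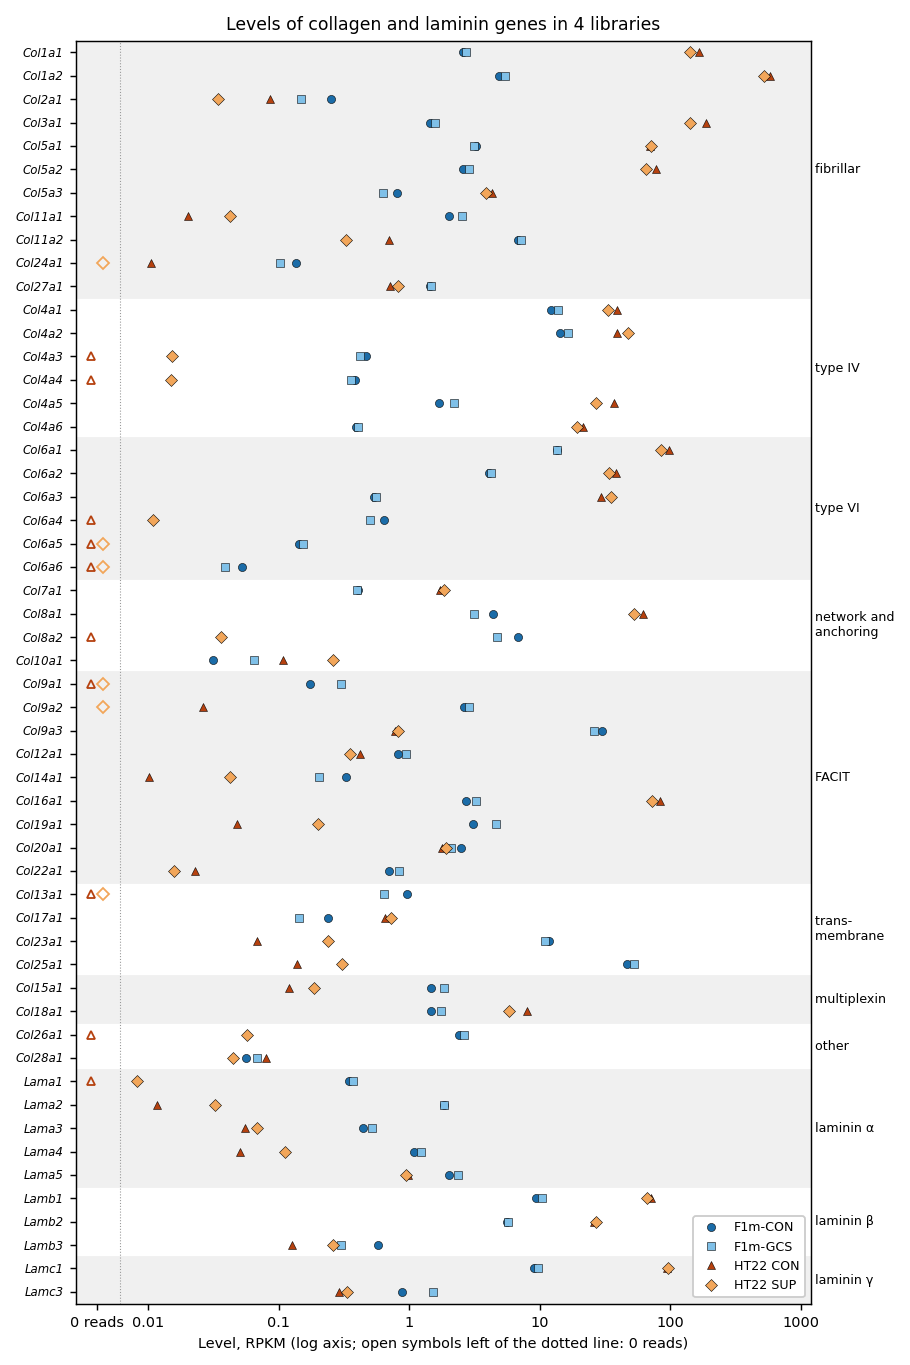
Level of the genes in RPKM on a log axis, with 1 symbol per library and open symbols for 0 reads. Blue symbols are hippocampus and orange symbols HT22. Col1a2 lies at 586 and 524 RPKM in HT22 against 4.84 and 5.42 in hippocampus, and Col25a1 at 46.6 and 53 RPKM in hippocampus against 0.137 and 0.303 in HT22.

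In hippocampus no fibrillar collagen exceeded 7.22 RPKM. The order by level in F1m-CON was Col25a1 at 46.6 RPKM, Col9a3 at 29.9, Col4a2 at 14.3, Col6a1 at 13.5, Col4a1 at 12.2 and Col23a1 at 11.8. Lamb1 followed at 9.44 RPKM and Lamc1 at 9. These genes serve several structures: Col4a1 and Col4a2 form the common basement membrane collagen, Col6a1 a beaded filament, Col9a3 a fibril-associated collagen and Col23a1 a membrane-bound collagen. Among fibrillar collagens the highest was Col11a2, a minor chain best known from cartilage, at 6.86 and 7.22 RPKM. Col1a2 had 4.84 and 5.42 RPKM and Col1a1 2.57 and 2.73. In bulk tissue, fewer cells of a type and less RNA per cell cannot be told apart.

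In HT22 the type I and type III chains led. Col1a2 was at rank 196 among all 22328 genes by level in HT22 CON and at rank 233 in HT22 SUP, compared with 11141 and 10950 in the hippocampus libraries. Col3a1 had 188 and 143 RPKM, Col1a1 167 and 143, Col6a1 98 and 85.4, and Lamc1 94.4 and 96.7. Next were Col16a1 (84 and 72.8 RPKM), Col5a2 (77.8 and 65.4), Lamb1 (70.8 and 67), Col5a1 (70.1 and 70.9) and Col8a1 (61.7 and 52.5). The leading HT22 genes thus included every chain of types I, III and V except Col5a3, which was at 4.32 and 3.88 RPKM.

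Between HT22 CON and F1m-CON, 18 of 48 measured members were called higher in HT22 and 21 lower. Over all 13924 measured genes, 14.3% were called higher and 28.2% lower. The median log2 ratio of the members was -1.11, against -0.10 for all genes. It was -0.55 for 1449 other genes as long as the longer 3 in 4 members. After subtracting the median of genes of like coding length and GC content, the members' median was -0.23. Counts were alike between HT22 SUP and F1m-GCS, with 18 of 44 higher and 19 lower, where the shares over all genes were 13.7% and 28.1%. The members spanned log2 ratios from -8.16 to 6.86, and the other 9 were not called. Cell line and tissue differ in culture, age, cell makeup and depth, and these cannot be told apart here.

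**Figure D2:**
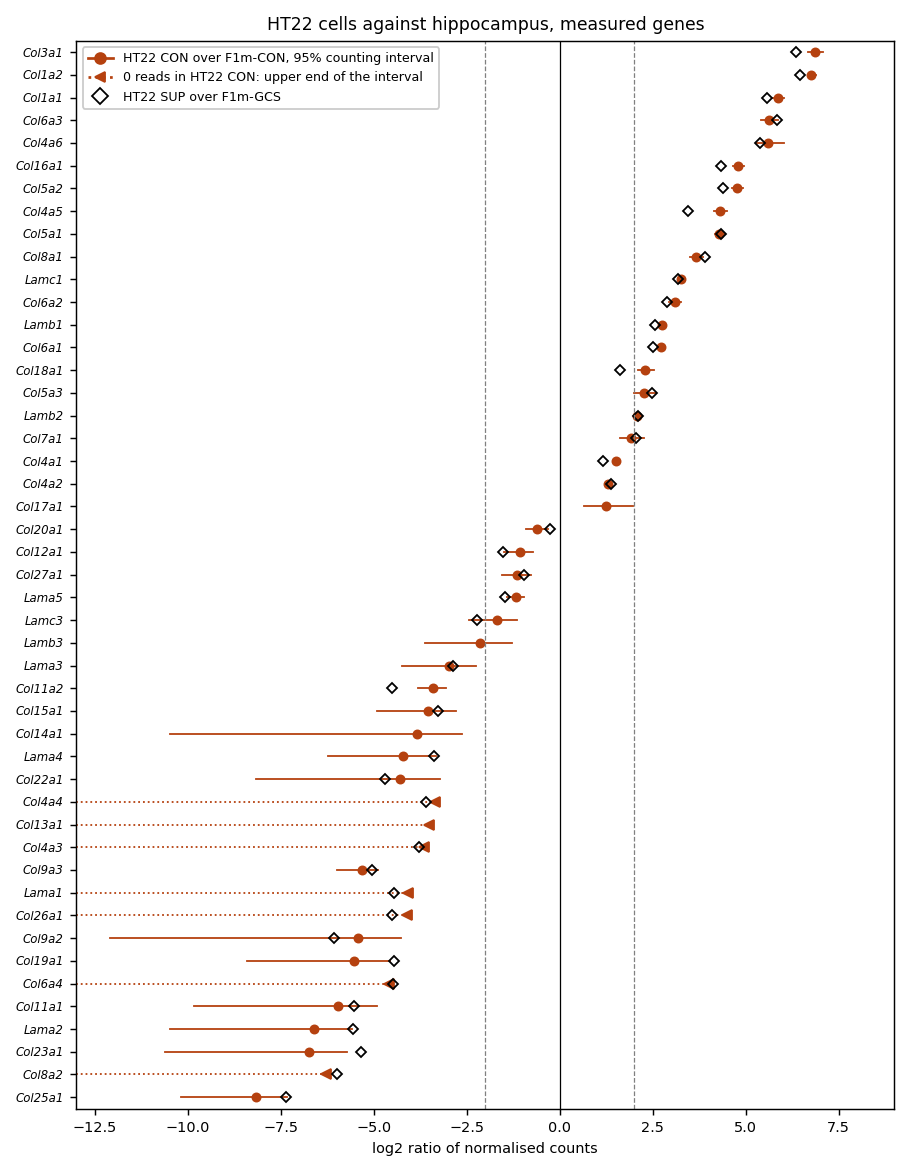
Log2 ratio of HT22 over hippocampus for the measured members, sorted by the ratio of the CON libraries (filled circles, lines for 95% counting intervals). Open diamonds are the ratio of HT22 SUP over F1m-GCS, arrowheads mark genes at 0 reads in HT22 CON, and dashed lines mark 4-fold. Col3a1, Col1a2, Col1a1, Col6a3 and Col4a6 lie at the top, and Col25a1, Col8a2, Col23a1 and Lama2 lie at the bottom.

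Fibrillar collagens were the class with the largest excess in HT22. Of 9 measured members 6 were called higher and 2 lower, with a median log2 ratio of 4.29. Col3a1 had 198 reads in F1m-CON, 210 in F1m-GCS, 15112 in HT22 CON and 8298 in HT22 SUP. Both HT22 libraries lay far above both hippocampus libraries, and the HT22 CON over F1m-CON ratio was 117-fold (log2 6.86, 6.68 to 7.09). Col1a2 had 621, 676, 44163 and 28480 reads in the same order, a ratio of 109-fold (log2 6.77, 6.67 to 6.9). Col1a1 had 350, 361, 13366 and 8247 reads and a 58.6-fold ratio (log2 5.87, 5.73 to 6.04). All 3 chains, which make the main fibrils of skin, bone and vessel walls, stood far above the tissue in both HT22 libraries. The type V chains Col5a2 and Col5a1, which nucleate such fibrils, had ratios of 27.4-fold and 19.6-fold, and Col5a3 had 4.8-fold. The type XI chains ran the opposite way. Col11a2 had 1085, 1108, 65 and 22 reads (10.6-fold lower in HT22 CON), and Col11a1 had 340, 414, 2 and 3 (log2 -5.96, -9.83 to -4.92). Col27a1, at 249, 245, 72 and 60 reads, was 2.21-fold lower and not called.

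Transmembrane collagens were the reverse of the fibrillar class, with 3 of 4 measured members called lower in HT22 and a median of -5.79. Col25a1 had 2905 and 3209 reads in hippocampus and 5 and 8 in HT22, a log2 ratio of -8.16 (-10.18 to -7.33). This was the lowest ratio among the members. Col23a1 had 589, 531, 2 and 5 reads (log2 -6.74, -10.62 to -5.71). Col13a1, a collagen of neuromuscular junctions, had 67 and 43 reads in hippocampus and 0 in both HT22 libraries. Counted against a floor of 3 reads in HT22 CON, it was 14.5-fold higher in F1m-CON. Such floor ratios leave out the counting error of the hippocampus count. The log2 interval of Col13a1 in HT22 CON over F1m-CON had its upper end at -3.52. Col17a1, the hemidesmosome collagen of skin, was the exception, with 33 and 19 reads in hippocampus and 53 and 42 in HT22.

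The upstream bases of the genes at the top and bottom of the line-to-tissue comparison are shown to set the extremes side by side. They are RefSeq promoter windows on GRCm38.p6, the assembly that mm10 names, 5′ to 3′ on the gene's strand, restricted to bases before the transcript start that lie in no annotated exon. Capitals mark 3 motifs on either strand, so reverse complements are in capitals too. They are the CCAAT box, the GC box with the letters GGGCGG and the TATA box with the letters TATAAA. No match overlapped another. Col3a1 covers chr1:45311288-45311537 on the plus strand and Col25a1 covers chr3:130180595-130180844 on the plus strand.
Col3a1: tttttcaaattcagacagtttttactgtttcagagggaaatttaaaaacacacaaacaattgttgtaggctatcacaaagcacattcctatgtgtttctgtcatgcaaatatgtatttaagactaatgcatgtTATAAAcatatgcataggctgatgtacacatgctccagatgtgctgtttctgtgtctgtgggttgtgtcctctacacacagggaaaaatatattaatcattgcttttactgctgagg
Col25a1: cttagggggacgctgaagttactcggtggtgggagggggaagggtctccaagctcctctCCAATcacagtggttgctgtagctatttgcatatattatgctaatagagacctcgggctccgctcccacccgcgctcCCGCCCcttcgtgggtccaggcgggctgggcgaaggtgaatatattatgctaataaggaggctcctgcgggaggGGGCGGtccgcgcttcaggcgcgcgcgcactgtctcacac
The printed Col3a1 stretch had 35.2% G and C and a single TATAAA. The printed Col25a1 stretch had 60.4%, with 1 CCAAT and 2 GGGCGG matches. Shares were taken over full windows, 250 bases before and 50 after the transcript start, exon bases included. Across the 40 members with such a window, GGGCGG was in 59.1% of 44 windows, against 35.7% of all 32851 windows of the same length. CCAAT was in 31.8% against 37.4% and TATAAA in 11.4% against 13.6%. These are matches of letters and not binding sites.

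Fibril-associated (FACIT) collagens were mostly tissue genes. Of 8 measured, 5 were called lower in HT22 CON and 1 higher, with a median of -4.07. Col16a1 was the gene that went up, with 401, 469, 7293 and 4554 reads (27.9-fold, log2 4.8, 4.67 to 4.96), and it supplied 96.9% of the class's reads in HT22 CON. Col9a3 was the class's largest gene in hippocampus, with 1903 and 1623 reads against 29 and 22 in HT22 (40.3-fold lower). Its partner chain Col9a2 had 169, 181, 1 and 0 reads. Col19a1, a collagen made by some hippocampal interneurons, had 325, 477, 3 and 9 reads (log2 -5.53, -8.42 to -4.57). Col22a1 had 106, 123, 2 and 1 reads, and Col14a1 had 55, 33, 1 and 3. Col12a1 and Col20a1, within 4-fold of the tissue, had 235, 265, 71 and 43 reads and 306, 252, 130 and 100 reads.

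Type VIII collagen, a short-chain network former of vessel walls and the cornea, was split between its chains. Col8a1 had 304 and 214 reads in hippocampus and 2525 and 1549 in HT22 (12.7-fold higher in HT22 CON). Col8a2 had 449 and 301 reads in hippocampus and 0 and 1 in HT22. It was at least 96.9-fold higher in F1m-CON than in HT22 CON. In hippocampus Col8a1 was at 0.636 of the Col8a2 level (0.548 to 0.737), while in HT22 Col8a1 stood at 61.7 and 52.5 RPKM almost without Col8a2. Col7a1, the anchoring fibril collagen of skin, had 112, 107, 279 and 213 reads and was 3.79-fold higher in HT22 CON, just short of a call. After correction for length and GC content Col7a1 was called higher (log2 2.85). In the multiplexins, Col18a1, the precursor of endostatin, was 4.93-fold higher in HT22 CON (242, 281, 778 and 412 reads), and Col15a1 was 11.7-fold lower (188, 228, 9 and 10). Col18a1 shares 8825 bases with Slc19a1 on the opposite strand, and the counting is not stated to use strand, so reads of the overlap cannot be assigned with certainty. Col26a1 had 100 and 106 reads in hippocampus and 0 and 1 in HT22. Against the same floor it was 21.6-fold higher in F1m-CON.

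The type IV genes lie as 3 head-to-head pairs, and each pair kept its own pattern between line and tissue. Col4a1 and Col4a2, the chains of the common network, had 1911, 2090, 3560 and 2216 reads and 2278, 2580, 3638 and 3189 reads. Both were higher in HT22 CON, by 2.88-fold and 2.47-fold, which was short of a call. After correction for length and GC content both were called higher (log2 2.45 and 2.23). Col4a5 (267, 341, 3471 and 1799 reads) and Col4a6 (62, 62, 2000 and 1295 reads) were called higher by 19.9-fold and 48-fold. Col4a3 and Col4a4, known from the kidney glomerulus, had 73 and 64 reads and 60 and 55 reads in hippocampus, and 0 and 1 each in HT22. Against the floor of 3 reads in HT22 CON they were 15.7-fold and 12.9-fold higher in F1m-CON. Thus 1 pair was modestly higher in the line, another was far higher, and the last had at most 1 read per gene in it.

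Col4a1 and Col4a2 overlap by 22 bases at their starts, and the overlap is shown in capitals within chr8:11312801-11312830 on the plus strand of GRCm38.p6.
Col4a1 and Col4a2 starts: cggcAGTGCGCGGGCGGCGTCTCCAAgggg
Col4a4 and Col4a3 were 71 bases apart and Col4a6 and Col4a5 were 1308 bases apart. The upstream bases of the last pair, which face each other, are shown because both genes were high in HT22. Col4a5 covers chrX:141475169-141475384 on the plus strand and Col4a6 covers chrX:141474077-141474326 on the minus strand, with capitals as above.
Col4a5: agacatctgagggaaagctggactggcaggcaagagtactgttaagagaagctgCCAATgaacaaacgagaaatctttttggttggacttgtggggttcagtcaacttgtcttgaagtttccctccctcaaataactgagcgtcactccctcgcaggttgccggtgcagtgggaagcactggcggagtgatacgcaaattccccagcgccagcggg
Col4a6: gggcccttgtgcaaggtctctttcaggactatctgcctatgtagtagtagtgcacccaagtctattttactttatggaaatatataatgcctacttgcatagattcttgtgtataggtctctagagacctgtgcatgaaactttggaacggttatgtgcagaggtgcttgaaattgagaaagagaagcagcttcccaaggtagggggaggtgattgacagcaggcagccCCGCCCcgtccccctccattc
The printed Col4a5 stretch had 1 CCAAT match and the Col4a6 stretch 1 GGGCGG match. Neither held TATAAA.

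Type VI collagen is assembled from the products of Col6a1, Col6a2 and a chain such as Col6a3. All 3 were called higher in HT22 CON, Col6a1 by 6.57-fold (1297, 1267, 5523 and 3469 reads), Col6a2 by 8.5-fold (396, 395, 2190 and 1391) and Col6a3 by 49.3-fold (165, 165, 5339 and 4607). Col6a4 had 138 and 105 reads in hippocampus and 0 and 1 in HT22. Against the floor of 3 reads it was 29.8-fold higher in F1m-CON. Its neighbours Col6a5 and Col6a6 had 35 and 37 reads and 11 and 8 reads in hippocampus and 0 in HT22. In hippocampus the level of Col6a1 was 25.2 times that of Col6a3 in F1m-CON (21.4 to 29.8) and 24.6 times in F1m-GCS (20.9 to 29.1). In HT22 it was 3.31 times (3.19 to 3.44) in CON and 2.41 times (2.31 to 2.52) in SUP. Col6a3 was thus closer to Col6a1 in the line than in the tissue.

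**Figure D3:**
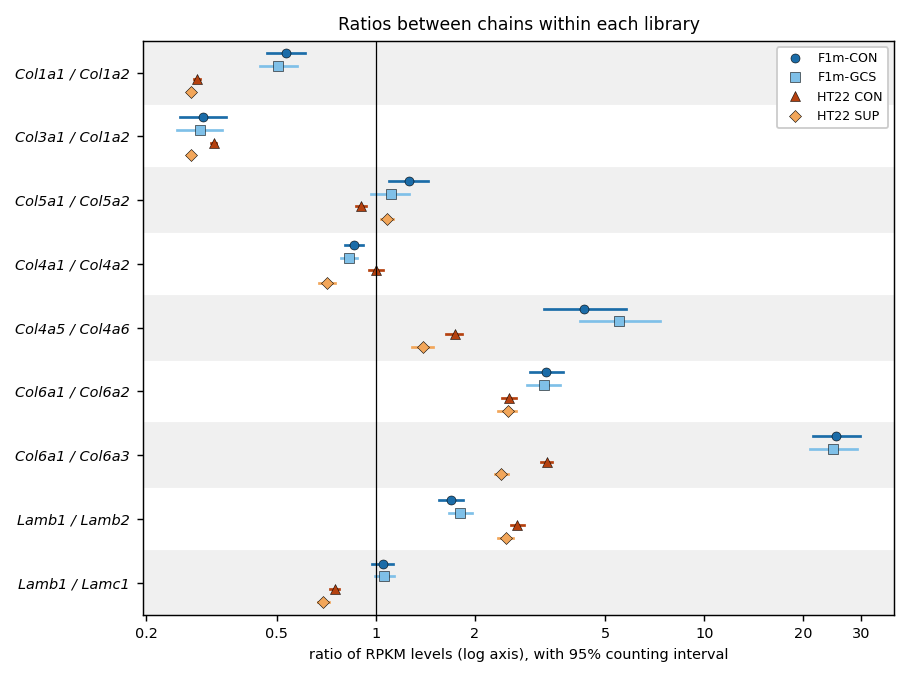
Ratio of RPKM levels between chains within each library, on a log axis with 95% counting intervals. Col6a1 over Col6a3 is 25.2 and 24.6 in hippocampus and 3.31 and 2.41 in HT22, and Col4a1 over Col4a2 goes from 1 in HT22 CON to 0.711 in HT22 SUP.

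Transcripts of partner chains were unequal in level. Type I collagen has 2 Col1a1 chains for each Col1a2 chain, yet Col1a1 was at 0.532 of the Col1a2 level in F1m-CON (0.466 to 0.608) and at 0.504 in F1m-GCS (0.443 to 0.574). In HT22 the ratio was lower still, 0.286 in CON (0.28 to 0.291) and 0.273 in SUP (0.267 to 0.28). Ratios between genes rest on the coding lengths of the tables. Col4a5 was 4.31 and 5.5 times Col4a6 in hippocampus and 1.74 and 1.39 times in HT22. Col6a1 over Col6a2 was 3.3 and 3.24 in hippocampus and 2.54 and 2.52 in HT22.

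Laminins showed a different split, by chain class. All 5 alpha chains were below the tissue in HT22 CON and 4 were called lower, with a median of -4.21. Of the 3 beta chains 2 were called higher and 1 lower, and of the 3 gamma chains 2 were called higher. Lama2, the alpha chain of muscle and vessel membranes, had 535, 524, 2 and 4 reads (log2 -6.61, -10.48 to -5.58). Lama1, a chain of early embryonic membranes, had 99, 104, 0 and 1 reads. Against the floor of 3 reads it was 21.4-fold higher in F1m-CON. Lama4, a chain of endothelial membranes, had 185, 201, 5 and 8 reads, and Lama3, a chain of epithelial membranes, had 138, 156, 10 and 9. Lama5, the broad adult chain, was the only alpha chain above 10 reads in HT22. It had 700, 800, 200 and 138 reads and was 2.26-fold lower.

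The ubiquitous chains Lamb1 and Lamc1 were high in HT22. Lamb1 had 1620, 1729, 7133 and 4868 reads (6.8-fold, log2 2.76, 2.69 to 2.85), and Lamc1 had 1353, 1425, 8339 and 6153 (9.51-fold, log2 3.25, 3.17 to 3.34). Lamb2, a chain of synaptic and vessel membranes, had 939, 938, 2600 and 1920 reads (4.27-fold). Lamb3, a chain of epithelial laminin, had 63, 32, 8 and 12 reads (4.42-fold lower in HT22 CON). Lamc3 had 131, 217, 25 and 21 reads and was 3.25-fold lower without a call. Lamb1, Lamb2 and Lamc1 thus stood above the tissue in both HT22 libraries, and Lamc3 below it. Lamb3 was below the tissue in HT22 CON only. In HT22 SUP over F1m-GCS it was not measured, with a log2 ratio of -0.32 (-1.44 to 0.65).

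Summed by class, the alpha, beta and gamma chains stood at 5.72, 15.6 and 10.8 RPKM in F1m-CON and at 6.32, 16.4 and 12.1 in F1m-GCS. In HT22 CON they stood at 1.1, 97.2 and 110 RPKM, and in HT22 SUP at 1.16, 94.2 and 107. The beta sum was 2.73 and 2.6 times the alpha sum in hippocampus and 88.7 and 81.4 times in HT22. The gamma sum was 1.89 and 1.92 times the alpha sum in hippocampus and 101 and 92.5 times in HT22. Most of the HT22 alpha reads came from Lama5, 92.2% in CON and 86.2% in SUP.

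**Figure D4:**
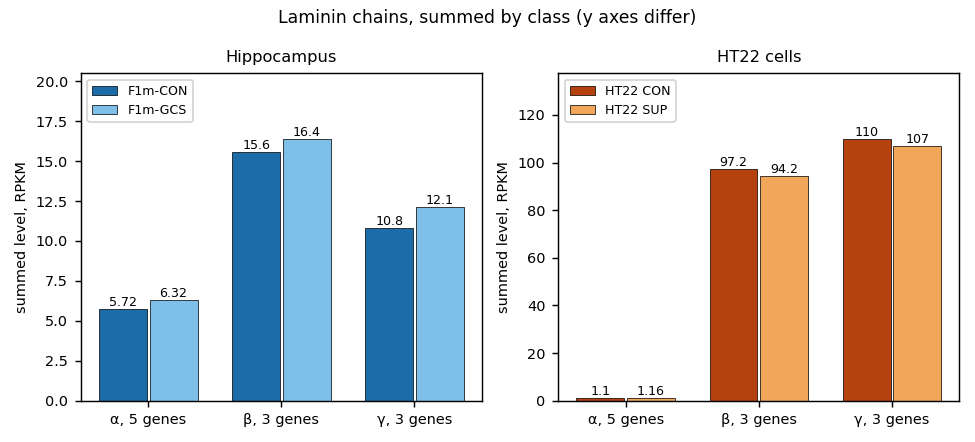
Summed RPKM of the laminin alpha, beta and gamma genes in each library, with bars from 0 and separate y axes for hippocampus and HT22. The alpha bar is 5.72 and 6.32 RPKM in hippocampus and 1.1 and 1.16 in HT22, where beta and gamma are between 94.2 and 110.

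The upstream bases of the leading beta chain and of the main alpha chain are given for this contrast, with capitals as above. Lamb1 covers chr12:31265043-31265233 on the plus strand and Lama5 covers chr2:180225860-180226109 on the minus strand.
Lamb1: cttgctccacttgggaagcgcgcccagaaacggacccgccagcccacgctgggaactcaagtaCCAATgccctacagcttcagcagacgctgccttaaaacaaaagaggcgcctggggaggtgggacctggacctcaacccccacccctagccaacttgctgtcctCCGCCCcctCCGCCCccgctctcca
Lama5: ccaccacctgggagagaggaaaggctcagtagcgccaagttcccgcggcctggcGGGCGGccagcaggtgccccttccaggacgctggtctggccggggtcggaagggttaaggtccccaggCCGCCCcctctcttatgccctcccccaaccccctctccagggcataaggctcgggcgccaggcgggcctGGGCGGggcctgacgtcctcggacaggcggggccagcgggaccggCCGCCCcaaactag
Both printed stretches were rich in G and C, 63.9% for Lamb1 and 72.4% for Lama5. GGGCGG occurred 2 times in the Lamb1 stretch and 4 times in the Lama5 stretch.

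In hippocampus, maternal choline supplementation was accompanied by few differences among matrix genes. Of 47 measured members, 2 were called higher in F1m-GCS (Lamc3 and Col19a1) and 2 lower (Lamb3 and Col14a1). Over all 13392 measured genes 1.8% were called higher and 0.904% lower. Members above 0 numbered 32 of 47, with a median log2 ratio of 0.10. Above 0 were also 6538 of all 13392 genes, with a median of -0.00. Among 1420 other genes as long as the longer 3 in 4 members, 1120 were above 0, with a median of 0.10. After subtracting the median of genes of like coding length and GC content, the members' median was 0.05 and the same 4 genes were called.

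Lamc3, a gamma chain found in brain and retina, had the highest ratio. It lies at chr2:31887291-31946539 on mm10 and had 131 reads in F1m-CON and 217 in F1m-GCS, a 1.71-fold difference (log2 0.77, 0.46 to 1.11). Col19a1, at chr1:24261890-24587472, had 325 and 477 reads, 1.52-fold (log2 0.60, 0.40 to 0.82). In both genes the F1m-GCS library was the higher, and the next gene up, Col4a5, was at 1.32-fold with 267 and 341 reads. Lamb3, at chr1:193301957-193343878, had 63 and 32 reads, 1.84-fold lower (log2 -0.88, -1.58 to -0.29). Col14a1, a tendon and skin FACIT collagen at chr15:55307750-55520803, had 55 and 33 reads, 1.57-fold lower (log2 -0.65, -1.35 to -0.03). The genes that were lower thus rested on fewer than 100 reads per library, and the interval of Col14a1 nearly reached 0.

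**Figure D5:**
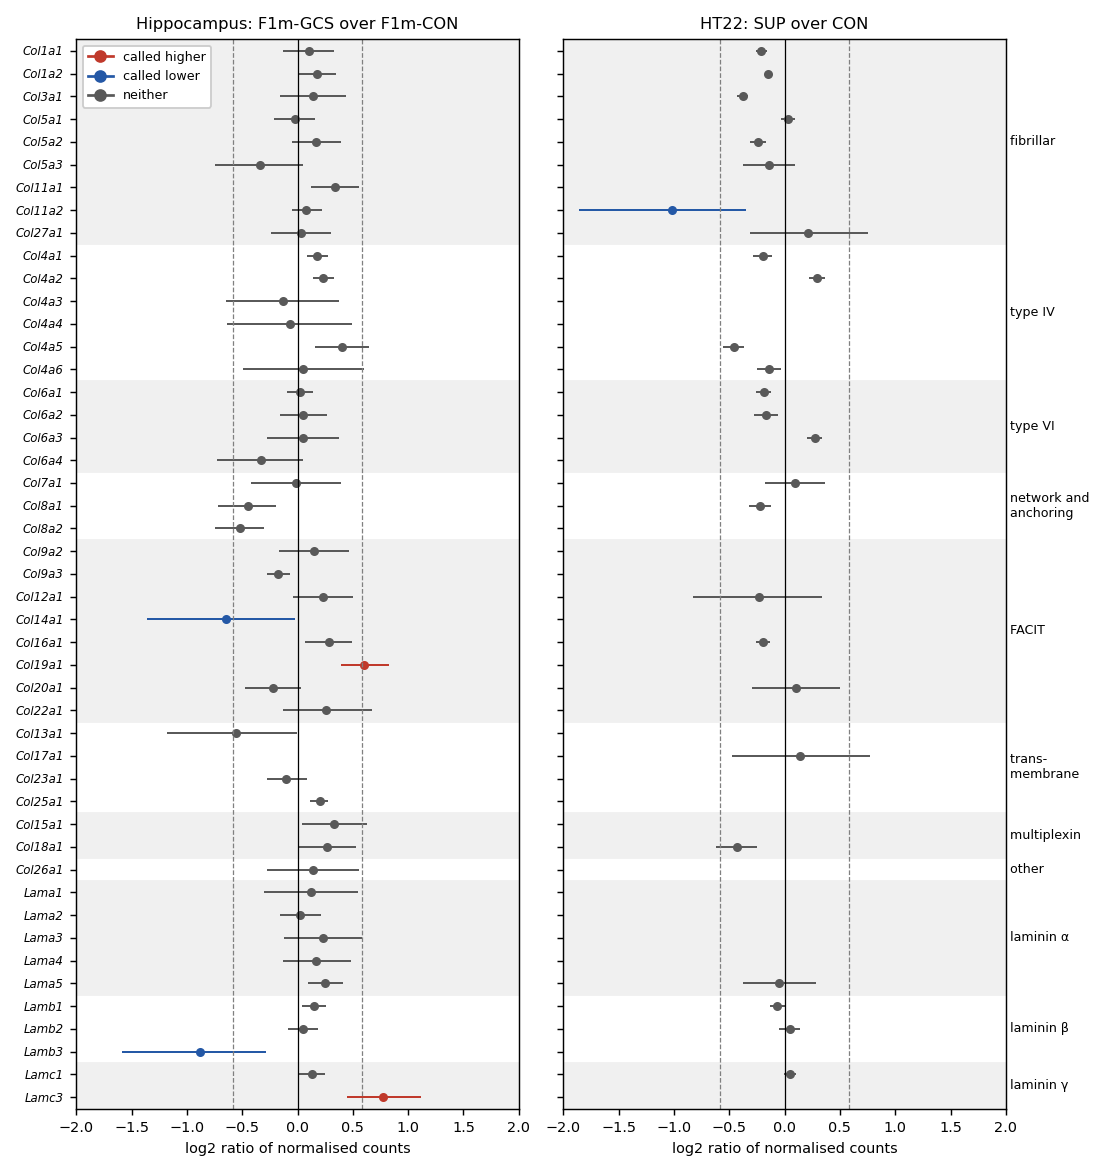
Log2 ratio and 95% counting interval for the measured members, F1m-GCS over F1m-CON on the left and HT22 SUP over CON on the right, with dashed lines at 1.5-fold. Lamc3 and Col19a1 are called higher and Lamb3 and Col14a1 lower in hippocampus, and Col11a2 is called lower in HT22.

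Several basement membrane genes of the hippocampus, but not all, were slightly higher in F1m-GCS without reaching the fold. The log2 ratio was 0.23 for Col4a2 (0.15 to 0.32), 0.18 for Col4a1 (0.09 to 0.27), 0.25 for Lama5 (0.1 to 0.4), 0.15 for Lamb1 (0.05 to 0.25) and 0.13 for Lamc1 (0.02 to 0.24). For the multiplexins Col15a1 and Col18a1 it was 0.33 and 0.27. Of 11 laminins 9 were above 0, with a median of 0.13, and of 6 type IV genes 4 were above 0, with a median of 0.12. These values are near the 0.10 of other long genes. Lamb2 was at 0.05 (-0.08 to 0.18), Col4a3 at -0.13 and Col4a4 at -0.07. After correction for length and GC content the intervals of Lamb1 (-0.01 to 0.19) and Lamc1 (-0.04 to 0.18) included 0. Of 19 measured basement membrane partners, described below, 5 had intervals above 0 and 5 below. Over all 13392 measured genes these were 2800 and 2514. Col25a1, the largest member in this tissue, was at 0.20 (0.12 to 0.27). Of the 4 measured type VI genes, Col6a1 was at 0.02 (-0.09 to 0.13), Col6a2 and Col6a3 were each at 0.05, and Col6a4 was at -0.33 (-0.72 to 0.04).

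Type VIII collagen was lower in F1m-GCS in both chains. Col8a2 had 449 reads in F1m-CON and 301 in F1m-GCS (log2 -0.52, -0.74 to -0.31), and Col8a1 had 304 and 214 (-0.45, -0.71 to -0.2). Col9a3 had 1903 and 1623 (-0.18, -0.27 to -0.08), and Col13a1 had 67 and 43 (-0.56, -1.17 to -0.01). None of these reached 1.5-fold. Markers of choroid plexus were lower too, 7 of 7 below 0 with a median of -0.52, Aqp1 (-0.79) and Kcnj13 (-0.71) called lower, none at 0 reads, and a summed level of 2960 CPM in F1m-CON and 2480 in F1m-GCS. Markers of meninges and fibroblasts were above 0 in 6 of 8 cases, with a summed level of 203 and 217, none at 0 reads and Ogn called higher (log2 0.65). Over all 13392 measured genes 6538 were above 0 and 6854 below, with 1.8% called higher and 0.904% lower. The part of the choroid plexus and fibroblast markers in the member values was not tested.

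In HT22, 70 µM choline was accompanied by no member called higher and 2 called lower among 27 measured, 1 of them Col11a2. Over all 10854 measured genes 5.13% were called higher and 2.89% lower. Below 0 were 18 of 27 members and 6304 of all 10854 genes, with medians of -0.15 and -0.05. Col11a2, at chr17:34039437-34066685 on mm10, had 65 reads in HT22 CON and 22 in HT22 SUP, 2.03-fold lower (log2 -1.02, -1.85 to -0.36). Its interval spans more than any other measured member's in HT22.

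The major HT22 collagens were slightly lower in SUP. Col3a1 had 15112 and 8298 reads (1.3-fold lower, log2 -0.38, -0.42 to -0.34), Col1a1 13366 and 8247 (-0.21) and Col1a2 44163 and 28480 (-0.15). Col4a5 had 3471 and 1799 reads (1.38-fold lower, log2 -0.46, -0.55 to -0.38), and Col18a1 778 and 412 (1.35-fold lower, log2 -0.43, -0.61 to -0.26). Col5a2 was at -0.24, Col8a1 at -0.22, and Col16a1, Col4a1 and Col6a1 at -0.20, -0.20 and -0.19. Of 27 members 15 had an interval wholly below 0, and 2 had an interval wholly above it, compared with 32.7% and 22.4% of all measured genes. Those 2 were Col4a2 (0.29, 0.23 to 0.36) and Col6a3 (0.27, 0.21 to 0.33). Lamb1, Lamb2, Lamc1, Col5a1 and Lama5 stayed between -0.07 and 0.05.

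Partner chains did not move alike in HT22. The ratio of Col4a1 to Col4a2 was 1 in HT22 CON (0.955 to 1.05) and 0.711 in HT22 SUP (0.673 to 0.751), while in hippocampus it was 0.858 and 0.829 with overlapping intervals. The ratio of Col6a1 to Col6a3 went from 3.31 to 2.41 and that of Col4a5 to Col4a6 from 1.74 (1.64 to 1.83) to 1.39 (1.29 to 1.49). By contrast Col6a1 over Col6a2 was 2.54 and 2.52. Col3a1 and Col5a2, which lie tail to tail 24.6 kb apart, were at -0.38 and -0.24.

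Gene length moved with the HT22 result. Members are long, with a median coding length of 4842 bases against 1137 for all genes, and 24 of the 27 were in the longest of 10 equal groups of genes by length. The median log2 ratio of SUP over CON in that longest group was 0.29, and it was 0.29 for the 1108 other genes as long as the longer 3 in 4 members. After subtracting the median of genes of like length and GC content, the members' median was -0.33, 25 of 27 were below 0, and 5 were called lower and 0 higher. Under the same correction 5349 of 10719 genes were below 0, and 2.1% were called lower and 4.21% higher. The 3 added calls were Col4a5 (-0.78), Col18a1 (-0.70) and Col3a1 (-0.64), while Col11a2 stood at -1.29. The positive values of Col4a2 and Col6a3 became 0.03 and 0.01. Why long genes were higher in the SUP library was not tested.

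A set of 19 members was taken because their hippocampal level was 20 or more times the HT22 level. Low levels in HT22 follow from this choice, which does not fix the difference between HT22 CON and HT22 SUP. The 19 members had 47 reads together in HT22 CON and 58 in HT22 SUP, at 1.01% and 1.73% of their F1m-CON level. Their pooled log2 ratio was 0.79 (0.21 to 1.37). For the 4585 other genes of this kind it was 0.92 (0.90 to 0.93). Of 298 genes of this kind measured in HT22, 212 were called higher. Of the 8 neuron markers 6 were measured, and all 6 were called higher. Over all 10854 measured genes 5.13% were called higher. None of the 19 reached 50 reads in HT22, so none entered the counts above. Whether these reads came from the HT22 cells was not tested.

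Col1a2, Col4a1, Col4a5, Col16a1, Col18a1 and Lamb1 had intervals above 0 in hippocampus and below 0 in HT22. These were 6 of the 26 members measured in both comparisons, against 5.35% of 10234 genes. After correction for length and GC content 3 of the 6 (Col4a1, Col4a5 and Col16a1) still had such intervals. Over all genes, 176 of the 548 with this pattern kept it. The treatments differ, a maternal diet against a medium, and the difference between them was not tested. Of the 26, 1 had both intervals above 0 (Col4a2) and 1 had both below (Col8a1).

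Most genes for modifying and folding collagen chains were higher in the line than in the tissue. Collagen genes themselves were split more evenly, with 14 of 37 called higher and 16 lower in HT22 CON. Of 20 modification and folding genes measured, 17 were above 0 in HT22 CON against F1m-CON, 11 of them called higher and 2 of the others lower. The median was 2.41, and over all measured genes 14.3% were called higher and 28.2% lower. Serpinh1, the collagen chaperone of the endoplasmic reticulum, had 763, 760, 11760 and 7260 reads (log2 4.57), and Fkbp10, a prolyl isomerase for collagen, was at 4.95. Colgalt2 (-6.29) and P3h2 (-3.94) were the lower ones. Under SUP 16 of 18 were below 0 with a median of -0.21, beside 6304 of 10854 measured genes below 0. Plod2, a lysyl hydroxylase for crosslink sites, had 1510 and 660 reads (-0.71), and Tmem38b, an ion channel of the endoplasmic reticulum, had 824 and 372 (-0.66). Both were called lower, as were 2.89% of all measured genes under SUP. P4ha1 and P4ha2, prolyl hydroxylase subunits, were at -0.27 and -0.25. In hippocampus none of 20 was called.

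Processing and crosslinking genes held the largest line-to-tissue ratio of any list. Lox, the lysyl oxidase that crosslinks fibrils, had 18 and 36 reads in hippocampus and 37102 and 20026 in HT22 (log2 11.45, 10.98 to 12.39). Pcolce, an enhancer of procollagen cleavage, was at 5.71, and Adamts3, a procollagen N-propeptidase, was at -8.02 with 1027 and 1108 reads against 1 and 4. In all, 5 of 11 were called higher and 3 lower, against 14.3% and 28.2% of all measured genes. Bmp1, the C-propeptidase, was at -0.11. Neither treatment gave a call in this list, and Lox was at -0.41 under SUP.

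Basement membrane partners were mainly tissue genes, with 11 of 20 called lower and 6 higher in HT22 CON and a median of -4.57. Over all measured genes 28.2% were called lower and 14.3% higher. The nidogens, which bridge laminin and type IV collagen, went opposite ways: Nid1 had 306, 395, 9801 and 7343 reads (log2 5.62) and Nid2 268, 231, 1 and 3 (-6.09). Hspg2, the perlecan core protein, had 3285 reads in HT22 CON and 4834 in HT22 SUP (log2 1.04, 0.98 to 1.11), the list's only call under SUP. In hippocampus Hmcn1, a hemicentin, had 74 and 136 reads (0.91, 0.51 to 1.36) and was the only call.

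Among receptors, Itgb1, the common beta integrin, was called higher in HT22 CON (log2 3.19), as were Ddr2 (4.64), a fibrillar collagen receptor, and Mrc2 (4.13), a collagen uptake receptor. In all, 3 of 15 were higher and 5 lower, with a median of -1.08. These counts are near the shares over all measured genes, 14.3% higher and 28.2% lower. Bcam, a receptor for Lama5-containing laminin, was at -7.13. In hippocampus Itga1, a collagen-binding integrin, was called higher in F1m-GCS with 132 and 207 reads (0.69, 0.38 to 1.03), and no receptor was called in HT22. Among proteases, Mmp2, a gelatinase, was at 7.27 and Timp1, an inhibitor, at 7.49. Of 14, 6 were higher and 5 lower, against the same shares. Mmp17 was at -9.22. Mmp8, a collagenase, had 148 and 66 reads in HT22 and was called lower under SUP (-0.67), while none of 11 was called in hippocampus.

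Fibril-associated matrix proteins gave calls in both treatments. In HT22, Dcn, the proteoglycan decorin, had 18181 and 8371 reads (log2 -0.63, -0.67 to -0.6), and Fbn1, a microfibril protein, had 4034 and 4503 (0.64, 0.58 to 0.7). In hippocampus Postn, periostin, had 69 and 153 reads (1.18, 0.78 to 1.63) and Ogn, a small proteoglycan, had 181 and 275 (0.65). Dcn and Ogn are also in the fibroblast marker list. Against the tissue, 8 of 16 were called higher in HT22 CON and 6 lower, beside 14.3% and 28.2% of all measured genes. Thbs2 (8.57) and Thbs1 (7.55), the thrombospondins, were at the top, and Fmod and Eln had 0 reads in HT22 CON. Fn1, fibronectin, was at 5.64.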

How the data were processed

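Poly(A) messenger RNA from 2 hippocampus and 2 HT22 libraries was sequenced in paired-end mode, per the labels' protocols. Reads were trimmed with Trim Galore, aligned to mm10 with TopHat2 and counted per gene with HTSeq, per the series' design text. CASAVA 1.8 is named without a role, per the submitters' processing notes. No label or header names the annotation release. The count columns were deposited as raw reads per gene, and the RPKM columns were made by the authors from all uniquely mapped reads, per the file headers. Reads in genes were 79.4%, 79%, 72.9% and 63.1% of uniquely mapped reads in F1m-CON, F1m-GCS, HT22 CON and HT22 SUP. The deposited lengths were multiples of 3 in 99.8% of protein-coding genes and are called coding lengths, a unit of bases set by the authors. The RPKM levels given here were recomputed over reads in genes, so they are set on each library's own depth. Comparing genes within a library rests on the coding lengths, while reads were counted per gene. Whether counted reads also fell outside the coding bases was not tested.

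Members and gene lists were chosen with earlier results of these data known. For each pair of libraries, edgeR 4.0.16 gave TMM factors, and the log2 ratio used a prior count of 2. Intervals are exact conditional (Clopper-Pearson) intervals of the 2 counts, and shares carry Wilson intervals. Intervals and floors (3 reads) cover counting error only, floors that of the HT22 count alone. Amplified reads are not independent molecules. The scripts were tested on simulated data. Any member with at least 50 reads could be named, and of each other list the first 3 names and the 4 measured genes farthest from 0. Mrc2 falls outside this rule and was chosen after its value was seen. Length and GC correction subtracted the median log2 ratio of genes in the same of 10 length groups and 5 GC groups. GC content came from GENCODE M21 and promoter sequences from RefSeq (GRCm38.p6). The comparison of protein sequences was not run. Values of 1 member enter the counts, medians and sums but are not reported here, in the text or the figures.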

Additional observations from a re-analysis of the deposited data

Results flagged for a closer look

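In 6 members the ratio to CON was above 0 in hippocampus and below 0 in HT22, each with a counting interval that excluded 0, so these were marked as differing in direction between tissue and line. The difference was not tested, since each group is 1 library and the contrasts are a maternal diet and a culture medium. In HT22 and in hippocampus the log2 ratios were -0.46 and 0.40 for Col4a5 and -0.43 and 0.27 for Col18a1. They were -0.20 and 0.28 for Col16a1 and -0.20 and 0.18 for Col4a1. For Col1a2 they were -0.15 and 0.18, and for Lamb1 -0.07 and 0.15. None reached 1.5-fold in either comparison. The same pattern was found in 5.35% of the 10234 genes measured in both comparisons. After correction for length and GC content 3 of the 6 kept intervals that excluded 0 on both sides, Col4a1, Col4a5 and Col16a1. Over all genes, 176 of the 548 with the pattern kept it. In Col1a2, Col18a1 and Lamb1 the corrected hippocampus interval included 0, as for Lamb1 at 0.09 (-0.01 to 0.19).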

How the results depend on the processing

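No paired analysis was possible because each group holds 1 library. Leaving out a library was not possible for the same reason. Total counts without TMM, DESeq2 size factors and a prior count of 0.25 left every count of calls within 1.5 times of the value reported. With a prior count of 10, 1 member was called lower in hippocampus (Col14a1 was lost). With at least 200 reads, 0 of 31 were lower in hippocampus and 1 of 22 in HT22, against 0.105% and 1.4% of all genes. In HT22 against hippocampus 18 of 33 were higher and 8 lower, against 14.3% and 24.8% of all genes. The lower calls were thus near the share over all genes at this setting. There the median turned to 2.26 because fewer low genes were tested. With at least 10 reads that median was -1.50. Where the whole interval had to lie beyond 1.5-fold, 0 members were higher and 0 lower in hippocampus and 0 lower in HT22, so no treatment call met this rule. Correction for length and GC content gave 5 of 27 lower in HT22 with a median of -0.33, where 2.1% of all genes were lower. Against hippocampus the median was -0.23. The calls there were 22 of 48 higher and 20 lower, against 15.1% and 27.4% of all genes. HT22 SUP against F1m-GCS had a median of -0.60. Leaving out genes at least 20 times higher in hippocampus says nothing about HT22, since none of the 27 members measured there was such a gene. Summed over members, the authors' deposited RPKM gave 180 (F1m-CON), 187 (F1m-GCS), 1290 (HT22 CON) and 994 (HT22 SUP), lower because all uniquely mapped reads are the divisor. In HT22, 28 of 55 members had under 50 reads in both libraries, 19 of them genes at least 20 times higher in hippocampus, so treatment differences of these 28 were not assessed at this depth.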
